A study of Mus musculus with 115 samples.

Results

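The comparison covers whole blood of male mice at 24 months of age, with 4 libraries, against whole blood at 15 months, with 5 libraries. The members were chosen by the tissue and age in the labels and by standing in the main counts table, which gave 9 of 115 samples of the series. Each library came from a different animal. The series also holds brain, liver and skin, and further ages of 2, 9 and 30 months. The animals of both ages were C57BL/6J males picked at random in a breeding facility, for which no transgene or treatment is named, and the labels give the strain as C57BL/6. Blood was drawn from the heart into RNA-stabilising tubes and depleted of globin transcripts before sequencing. The ages are cross-sectional, so no animal was followed from 15 to 24 months. One more 24-month blood library, which the study set aside as an outlier, stands in a separate table and is described at the end.

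Whole blood RNA is a mixture. Red cells and their precursors, platelets, neutrophils, monocytes, T cells, natural killer cells and B cells all contribute to it. B cells make antibodies, and each B cell clone transcribes 1 rearranged V gene for its heavy chain and 1 for its light chain, picked from many in the genome. The growth of a clone raises the share of its V gene among V gene reads, although reads of bulk RNA cannot be assigned to single cells or clones. With age, blood and spleen of mice are known to gain certain B cell subsets, among them age-associated B cells and B-1 cells, a self-renewing lineage that makes natural antibody. In bulk samples, fewer cells of a type and less RNA per cell cannot be told apart.

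The 9 libraries held 29092696 to 33955991 counts assigned to genes. Globin genes took 5.81% ± 1.89 (SD, n = 5) of counts at 15 months and 7.73% ± 5.29 (SD, n = 4) at 24 months, and mitochondrial genes took 6.92% ± 1.07 (SD, n = 5) and 8.75% ± 1.11 (SD, n = 4). The mitochondrial difference had p = 0.0635 in a two-sided exact permutation test, and p = 0.381 after adjustment over 6 library measures. The smallest p that 126 orders of 9 libraries allow is 0.00794. No library was a copy of another. Blood markers were present in every library, and the heart muscle genes Myh6 and Tnni3, of interest because blood was taken from the heart, stayed at or below 0.650 and 1.39 CPM (counts scaled to library size, with TMM factors). Of the skin and liver markers, Krt5, Krt14, Alb and Apoa1 stayed at or below 0.465 CPM and Lor was at 0 in all 9 libraries, while Sfn, of the skin and hair list, had 7.08 to 21.2 CPM. Replicate 2 at 15 months stood apart from its group in antibody genes, as the values below show.

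The most counted V gene of the heavy chain separated most libraries of the 2 ages. The V genes that led at 24 months are shown here because they carry this result, and because close copies limit how exactly a 50-base read can be placed. Each sequence is the last 294 bases of the coding part in the GENCODE vM21 transcripts (GRCm38), read 5′ to 3′ on the minus strand of chromosome 12 for the heavy chain. The stretches are chr12:115145487-115145780 for Ighv1-52, chr12:115359140-115359433 for Ighv1-61, chr12:114937113-114937406 for Ighv1-42 and chr12:114523441-114523734 for Ighv10-3, each within the last coding exon of its gene. Capitals mark the bases at which Ighv1-61 and Ighv1-42 differ from Ighv1-52.
Ighv1-52: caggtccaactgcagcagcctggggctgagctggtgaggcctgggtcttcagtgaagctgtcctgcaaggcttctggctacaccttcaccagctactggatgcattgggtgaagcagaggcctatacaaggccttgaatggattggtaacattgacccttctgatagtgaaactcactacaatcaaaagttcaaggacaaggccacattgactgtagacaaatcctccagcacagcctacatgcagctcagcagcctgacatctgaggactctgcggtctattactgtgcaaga
Ighv1-61: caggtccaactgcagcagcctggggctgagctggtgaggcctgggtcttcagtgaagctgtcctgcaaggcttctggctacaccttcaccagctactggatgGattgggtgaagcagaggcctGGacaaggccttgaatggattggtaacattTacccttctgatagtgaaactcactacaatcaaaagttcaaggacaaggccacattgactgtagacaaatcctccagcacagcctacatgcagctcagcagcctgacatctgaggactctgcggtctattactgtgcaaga
Ighv1-42: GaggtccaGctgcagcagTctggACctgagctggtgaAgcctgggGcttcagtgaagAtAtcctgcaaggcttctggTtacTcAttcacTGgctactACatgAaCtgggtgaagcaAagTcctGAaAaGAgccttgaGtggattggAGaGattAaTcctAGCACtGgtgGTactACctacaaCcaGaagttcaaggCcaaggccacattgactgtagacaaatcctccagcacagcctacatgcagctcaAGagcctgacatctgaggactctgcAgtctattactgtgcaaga
Ighv10-3: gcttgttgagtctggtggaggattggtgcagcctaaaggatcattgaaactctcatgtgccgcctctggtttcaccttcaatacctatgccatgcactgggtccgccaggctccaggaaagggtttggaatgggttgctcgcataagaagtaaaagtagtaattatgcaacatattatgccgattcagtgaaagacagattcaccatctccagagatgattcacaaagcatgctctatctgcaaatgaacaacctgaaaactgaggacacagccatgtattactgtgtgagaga
Ighv1-61 differed from Ighv1-52 at 4 of 294 bases, an identity of 98.6%, and 57.6% of its 50-base windows occur in Ighv1-52 as well. Ighv1-42 differed from Ighv1-52 at 47 of 294 bases, and 1.63% of its windows were shared with it. Over all other V genes, 67.2% of the windows of Ighv1-52 were shared with another V gene, against 25.3% for Ighv1-42 and 21% for Ighv10-3. Counts of Ighv1-52 and Ighv1-61 are therefore uncertain against each other, as the treatment of reads with several matches was not given in the sources used here.

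Over 104 heavy chain V genes, the leading gene took a small share of V counts in 4 of the 5 libraries at 15 months and a large one in all 4 at 24 months. At 15 months the leader was Ighv1-26 with 5.22%, 5.41%, 5.33% and 5.15% in replicates 1, 3, 4 and 5. Replicate 2 differed, with Ighv5-17 at 46.6% of 3099 V counts (95% Wilson interval 44.8 to 48.4). At 24 months Ighv1-42 led replicate 1 with 21.1%, Ighv10-3 led replicate 2 with 35.1%, and Ighv1-52 led replicates 3 and 4 with 28.3% and 22.9%. The groups overlapped only through replicate 2 at 15 months, and the same 2 genes of the Ighv1 family, Ighv1-52 and Ighv1-61, were among the 3 most counted in replicates 1, 3 and 4 at 24 months. These shares were looked at after other results were known and were not tested. The intervals cover counting error only.

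The kappa light chain gave a similar picture in 3 of the 4 libraries at 24 months. Its leading gene there was Igkv1-117, whose near copy Igkv1-110 was mostly counted beside it. Both are on the plus strand of chromosome 6, at chr6:68121534-68121827 and chr6:68270974-68271267 for the stretches shown, with capitals at the bases where Igkv1-110 differs from Igkv1-117.
Igkv1-117: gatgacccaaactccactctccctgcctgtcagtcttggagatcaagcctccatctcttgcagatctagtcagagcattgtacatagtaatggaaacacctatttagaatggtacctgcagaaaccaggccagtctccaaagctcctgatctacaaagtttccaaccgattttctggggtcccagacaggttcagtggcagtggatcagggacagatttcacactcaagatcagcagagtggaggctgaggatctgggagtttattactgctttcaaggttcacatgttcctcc
Igkv1-110: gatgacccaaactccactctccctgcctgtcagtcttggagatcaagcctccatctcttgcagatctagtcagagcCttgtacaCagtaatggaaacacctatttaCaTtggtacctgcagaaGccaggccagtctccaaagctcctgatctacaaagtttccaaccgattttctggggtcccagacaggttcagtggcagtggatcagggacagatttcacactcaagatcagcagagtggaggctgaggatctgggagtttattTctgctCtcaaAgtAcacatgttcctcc
Igkv1-110 differed at 9 of 294 bases, and 50.3% of its 50-base windows occur in Igkv1-117. Over 96 kappa V genes, Igkv1-117 led replicates 1, 3, 4 and 5 at 15 months with 5.40%, 6.16%, 5.39% and 5.29% of V counts. In replicate 2 at 15 months Igkv14-111 led with 29.1%. At 24 months Igkv1-117 took 19.5%, 6.66%, 33.7% and 20.1% in replicates 1 to 4, and Igkv1-110 took 19.0%, 6.94%, 15.0% and 15.4%. Replicate 2, the library led by Ighv10-3 in the heavy chain, was thus the one of the 4 without a large kappa share.

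**Figure D1:**
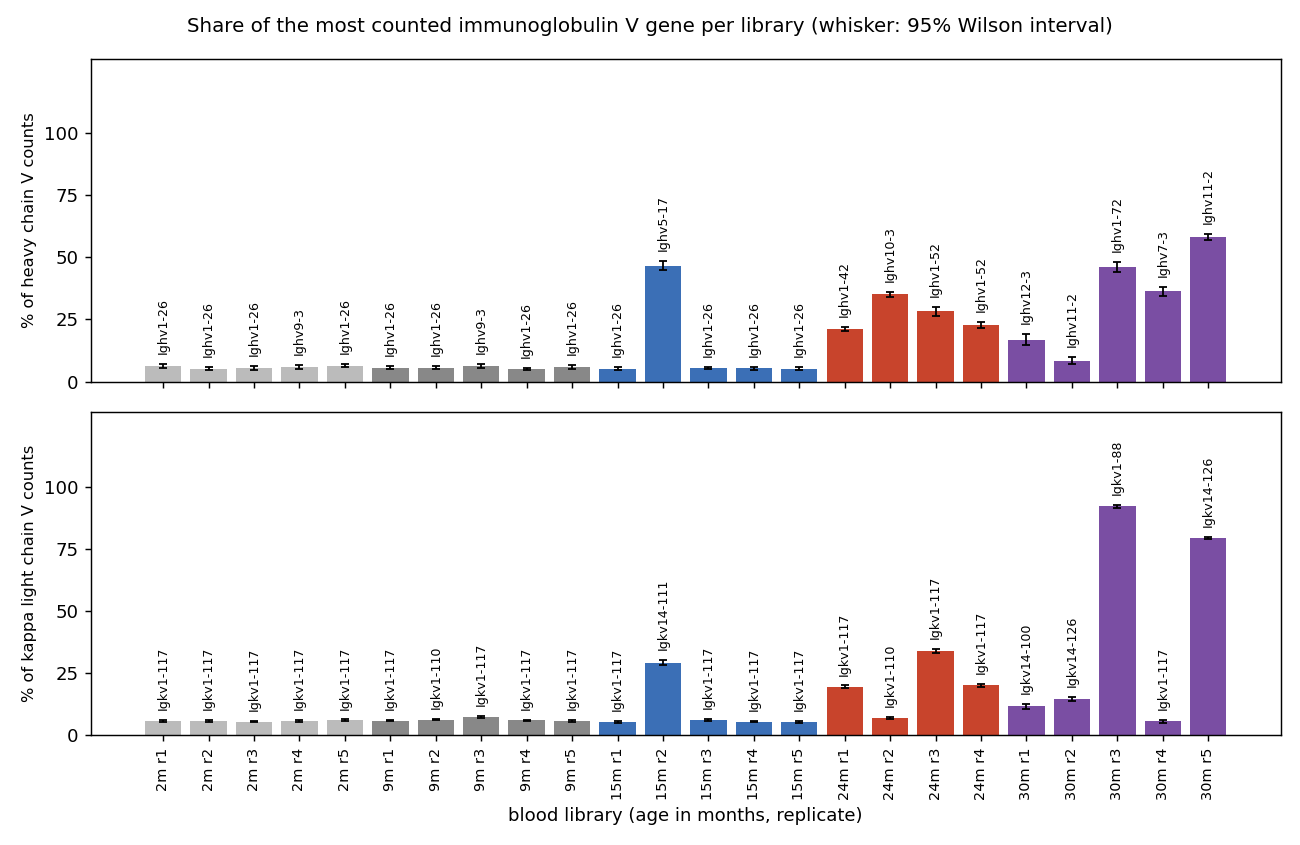
Share of the most counted immunoglobulin V gene in each of 24 blood libraries, for the heavy chain (upper panel) and the kappa light chain (lower panel), in percent of all V gene counts of that chain, with 95% Wilson intervals and the name of the leading gene. Heavy chain shares lay between 5.06% and 6.42% in all libraries at 2 and 9 months, between 21.1% and 35.1% at 24 months, and between 8.32% and 58.1% at 30 months.

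Before 15 months no blood library had a leading heavy chain V gene above 6.42%. At 30 months the leaders were Ighv12-3 with 16.8%, Ighv11-2 with 8.32%, Ighv1-72 with 46.1%, Ighv7-3 with 36.4% and Ighv11-2 with 58.1% in replicates 1 to 5. None of them led in the 4 libraries of the main table at 24 months. In the kappa chain, Igkv1-88 took 92.1% in replicate 3 and Igkv14-126 took 79.3% in replicate 5 at 30 months.

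In the test of all genes, 14730 passed the filter on low counts and 78 were called between 15 and 24 months at an adjusted p under 0.05 (edgeR, quasi-likelihood test, Benjamini-Hochberg), which is 0.530% of those tested. Of these, 76 were higher at 24 months (0.516%) and 2 were lower (0.0136%). The median log2 fold change of the 76 was 2.55, against -0.00088 over all genes tested. In 71 of the 76, every library at 24 months lay above every library at 15 months, as it did in 369 of all genes tested (2.51%), and the opposite held in 132 (0.896%). Protein-coding genes made up 68 of the 76, and 3 were heavy chain V genes. The 76 genes were called at these values, so their size and separation describe the calls and are no further test.

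The number of calls depended on single libraries and on the tool. It was 38 without replicate 4 at 15 months, 43 without replicate 1 at 15 months and 47 without replicate 2 at 24 months, against 109 without replicate 2 at 15 months. It was 179 with DESeq2, and 32 when the test was limited to genes with a count above 0 in every library of the main table.

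The 3 called V genes were Ighv1-52, Ighv1-42 and Ighv1-61. V genes fell outside the fixed rule for naming and were chosen after their values were seen, and all 3 carry older names in the table and were matched by gene ID. Ighv1-52 (ENSMUSG00000095204) had 1.88, 0.350, 2.03, 1.94 and 1.70 CPM at 15 months and 17.6, 1.24, 25.3 and 37.5 CPM at 24 months. It was high in 3 of the 4 libraries, while replicate 2 lay within the range at 15 months. Its log2 fold change was 3.66 ± 0.58 (SE), adjusted p = 0.00222 (edgeR). Ighv1-42 rose by 3.52 ± 0.80 (log2, SE; adjusted p = 0.0393, edgeR), with 34.8 and 11.6 CPM in replicates 1 and 4 and at most 0.470 CPM in the other 2. Ighv1-61, the near copy of Ighv1-52, rose by 2.34 ± 0.52 (adjusted p = 0.0329, edgeR). All 3 fell again from 24 to 30 months in the same fit, Ighv1-52 by 5.76, Ighv1-42 by 5.38 and Ighv1-61 by 4.17 on the log2 scale, with adjusted p of 5.84e-05, 0.00402 and 0.000972 (edgeR). Ighv1-52 was called without each of the 9 libraries in turn. Ighv1-42 was called only without replicate 2 or 3 at 24 months, and without any other its adjusted p was 0.0687 to 0.367, the highest without replicate 1 at 24 months. Ighv1-61 was called only without replicate 2 at 24 months, and without any other its adjusted p was 0.0520 to 0.170.

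Some genes known from age-associated B cells were among those that rose. Of 13 tested members of a list of age-associated B cell genes, 4 were called higher (Zbtb32, Fcrl5, Sox5 and Ahnak) and none lower. Of all genes tested, 0.516% were called higher. The list median was 0.28 on the log2 scale, with 10 members positive and 3 negative.

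Zbtb32 (ENSMUSG00000006310, chromosome 7, 30589681 to 30598909, GRCm38) encodes a zinc finger repressor that is induced in activated lymphocytes. It had 2.96, 16.9, 5.26, 3.44 and 5.81 CPM at 15 months and 40.7, 50.7, 46.5 and 38.5 CPM at 24 months. The lowest library at 24 months was above the highest at 15 months, which was again replicate 2. Means were 6.87 ± 5.72 (SD, n = 5) and 44.1 ± 5.54 CPM (SD, n = 4). The log2 fold change was 2.69 ± 0.52 (SE), adjusted p = 0.0107 (edgeR). Without replicate 4 at 15 months the adjusted p was 0.0532.

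Fcrl5 (ENSMUSG00000048031, chromosome 3, 87435773 to 87500678) encodes an Fc receptor-like surface protein of B cells. Its levels were 0.639, 1.399, 2.50, 1.28 and 2.29 CPM at 15 months and 10.7, 9.70, 9.64 and 7.74 CPM at 24 months. All 4 libraries at 24 months were high and close to each other. Fcrl5 rose by 2.53 ± 0.51 (log2, SE), adjusted p = 0.0142 (edgeR), and the call was lost without replicate 1 (adjusted p = 0.0592) or replicate 4 at 15 months (0.0618).

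Sox5 (ENSMUSG00000041540, chromosome 6, 143828425 to 144781977) encodes a transcription factor best known from cartilage and nerve cells, and found in human memory B cells that lack CD21. It was low at 15 months, with 0.320, 0.0875, 0.608, 0.278 and 0.542 CPM, against 2.13, 4.48, 4.19 and 3.01 CPM at 24 months. The groups did not overlap. Sox5 rose by 3.18 ± 0.55 (log2, SE), adjusted p = 0.00447 (edgeR). Ahnak, which encodes a giant scaffold protein under the plasma membrane, had means of 124 ± 24.1 (SD, n = 5) and 218.3 ± 34.7 CPM (SD, n = 4) and rose by 0.81 ± 0.18 (log2, SE; adjusted p = 0.0268, edgeR). Ahnak was chosen after its values were seen. Its call was lost without any 1 library other than replicate 2 at 15 months and replicate 1 at 24 months, with an adjusted p of up to 0.162, the highest without replicate 2 at 24 months.

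The other members of that list did not pass the test. Tbx21, which encodes the transcription factor T-bet and is a defining gene of age-associated B cells, had a log2 fold change of -0.14 (adjusted p = 0.951, edgeR), and Itgax, which encodes CD11c, had 0.04 (adjusted p = 0.987). Both are also expressed by other blood cells. Zbtb20, a transcription factor of B-1 and plasma cells in the mouse, had 0.75 (adjusted p = 0.271).

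B-1 cell genes were looked at through a list of 10 that was added after these values were seen. Zbtb32 and Ctla4 of this list were called higher, as were 0.516% of all genes tested. The list median was 0.84 on the log2 scale. Because members were picked with their values known, these figures describe the choice and are no test. Spn, Cd9, Bhlhe40 and Plac8 of the list had log2 fold changes of -0.04, 0.26, 0.17 and 0.60 and were not called. Bhlhe41, a transcription factor needed by mouse B-1a cells, had 2.52, 17.5, 2.90, 2.999 and 2.56 CPM at 15 months and 15.8, 26.9, 23.9 and 18.1 CPM at 24 months. It was low in 4 of 5 libraries at 15 months and high in replicate 2, and its log2 fold change of 1.91 ± 0.53 (SE) did not pass (adjusted p = 0.119, edgeR). Il10, which encodes an inhibitory cytokine, had 3.13 (adjusted p = 0.106), and Cd5, the surface marker of B-1a cells that T cells also carry, had -0.60 (adjusted p = 0.530).

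Ctla4 (ENSMUSG00000026011, chromosome 1, 60887000 to 60915832) encodes an inhibitory receptor of activated and regulatory T cells that mouse B-1a cells also express. It was the 1 called member of 33 in the list of effector and memory T cell genes. Its levels were 3.40, 2.97, 4.04, 2.17 and 2.60 CPM at 15 months and 6.49, 30.4, 21.5 and 19.0 CPM at 24 months. Replicate 1 at 24 months was far below the other 3 but above all at 15 months. The log2 fold change was 2.67 ± 0.56 (SE), adjusted p = 0.0192 (edgeR), and the call was lost without replicate 1, 4 or 5 at 15 months (adjusted p = 0.0592, 0.0706 and 0.0625) and without replicate 2 at 24 months (0.105), and it sat just above 0.05 without replicate 3 at 24 months. No other member of the list was called. Foxp3, which defines regulatory T cells, had a log2 fold change of -0.17 (adjusted p = 0.941, edgeR), and Icos and Pdcd1 had -0.56 (adjusted p = 0.406) and -0.70 (adjusted p = 0.762).

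**Figure D2:**
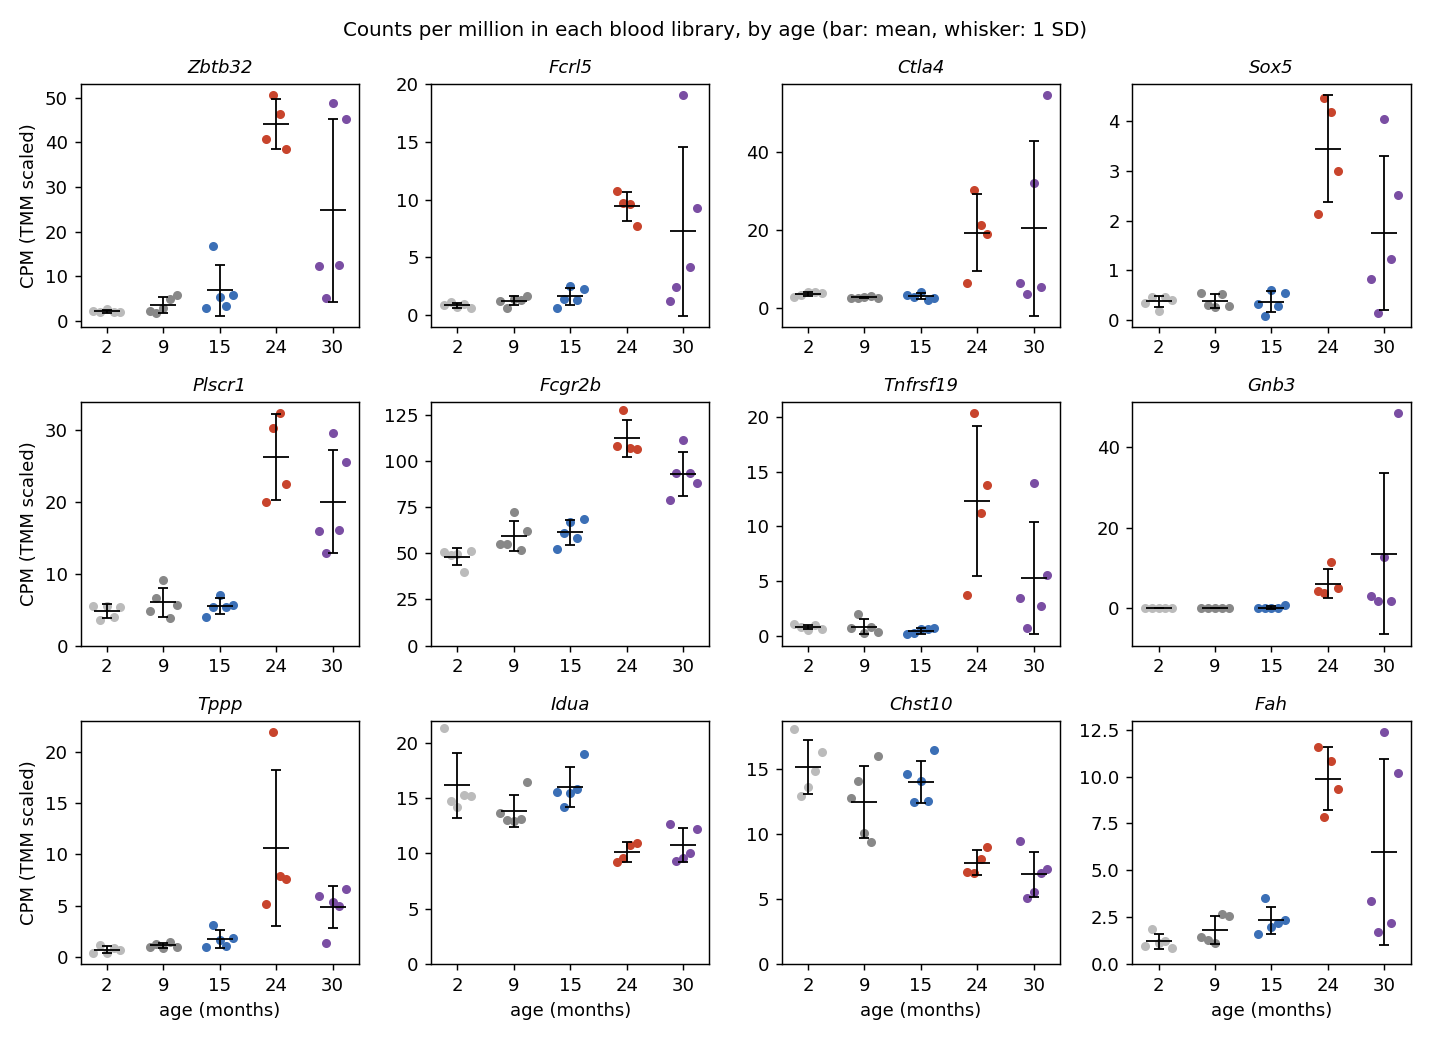
Level of 12 genes in each of 24 blood libraries against age, in CPM on a linear axis, with the mean (bar) and 1 SD (whisker) per age. Zbtb32, Fcrl5, Sox5 and Plscr1 lay higher in all 4 libraries at 24 months than in any at 15 months, and the 5 libraries at 30 months spread over both ranges for Zbtb32, Fcrl5 and Sox5.

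Fcgr2b (ENSMUSG00000026656, chromosome 1, 170958617 to 170976547) encodes the inhibitory Fc receptor for IgG, which B cells and myeloid cells carry. Its levels were 52.1, 61.0, 67.2, 58.5 and 68.4 CPM at 15 months and 108, 128, 107 and 107 CPM at 24 months. The rise was small, at 0.87 ± 0.13 on the log2 scale (SE; adjusted p = 0.00138, edgeR), and the groups did not overlap. Slamf9, a receptor of the SLAM family, rose by 2.03 ± 0.44 (log2, SE; adjusted p = 0.0255, edgeR), and this call was lost without replicate 1, 3, 4 or 5 at 15 months or replicate 2 or 3 at 24 months, with an adjusted p of 0.0543 to 0.122. Fcgr2b and Slamf9 were chosen after their values were seen.

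Plscr1 (ENSMUSG00000032369, chromosome 9, 92249750 to 92272278), which encodes a phospholipid scramblase of the plasma membrane that interferon can induce, had the smallest adjusted p of all genes. Its levels were 3.96, 5.42, 7.01, 5.33 and 5.66 CPM at 15 months and 20.001, 30.3, 32.4 and 22.4 CPM at 24 months. The log2 fold change was 2.26 ± 0.25 (SE), adjusted p = 5.26e-05 (edgeR).

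The 12 largest rises among genes whose mean log2 CPM reached 1 included Gnb3, Tnfrsf19, Lipc and Hepacam2. Gnb3, a beta subunit of heterotrimeric G proteins known from cone photoreceptors, had 0, 0, 0.210, 0.0555 and 0.813 CPM at 15 months and 4.35, 3.79, 11.4 and 5.08 CPM at 24 months. The log2 fold change was 4.82 ± 0.93 (SE), adjusted p = 0.0107 (edgeR), and without replicate 4 at 15 months the adjusted p was 0.0550. Gng13, a gamma subunit of G proteins, which has a lower mean level and was chosen after its values were seen, rose as well, from at most 0.0437 CPM in any library at 15 months to 0.213, 1.94, 1.23 and 1.23 CPM (adjusted p = 0.00222, edgeR).

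Tnfrsf19 (ENSMUSG00000060548, chromosome 14, 60963875 to 61046490), a receptor of the tumour necrosis factor family, had 0.120, 0.219, 0.655, 0.583 and 0.736 CPM at 15 months and 3.78, 20.3, 11.2 and 13.8 CPM at 24 months. Its counts were 3 to 28 in the libraries at 15 months and 177 to 736 at 24 months. The log2 fold change was 4.67 ± 0.68 (SE), adjusted p = 0.00121 (edgeR). Among ligands of the same family, Tnfsf4, which encodes OX40 ligand, rose from at most 0.306 CPM to between 1.13 and 2.17 CPM (log2 fold change 3.08, adjusted p = 0.00220, edgeR), and Tnfsf18, which encodes GITR ligand, had 3.08 (adjusted p = 0.0214). These ligands were chosen after their values were seen.

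Lipc, which encodes hepatic lipase, had 1.43 to 2.01 CPM at 15 months and 6.30 to 12.9 CPM at 24 months, and rose by 2.43 ± 0.36 (log2, SE), adjusted p = 0.00138 (edgeR). The liver markers Alb and Apoa1 stayed at or below 0.465 CPM in all 9 libraries. Hepacam2, which encodes an adhesion protein of the immunoglobulin superfamily, had 6.47, 1.66, 7.504, 6.11 and 7.79 CPM at 15 months and 21.1, 49.3, 25.5 and 26.4 CPM at 24 months. Its low value at 15 months was in replicate 2, the library with the high Zbtb32. Its log2 fold change was 2.36 ± 0.50 (SE), adjusted p = 0.0216 (edgeR), and the call was lost without replicate 1, 3 or 4 at 15 months (adjusted p = 0.0650, 0.0504 and 0.0693) or replicate 2 at 24 months (0.137).

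The remaining large rises were Ahnak2, a relative of Ahnak (log2 fold change 4.29), Trim40, a ubiquitin ligase of the tripartite motif family (4.17), Tppp, which promotes the assembly of microtubules (2.65), Camk2n1, an inhibitor of calmodulin kinase II (2.37), and Krt222, of the keratin family (2.31). For all 5 every library at 24 months was above every library at 15 months. Their adjusted p values were 0.00781, 0.00762, 0.00286, 0.0163 and 0.00762 (edgeR), and Camk2n1 lost its call without replicate 1, 4 or 5 at 15 months or replicate 2 or 3 at 24 months, with an adjusted p of 0.0509 to 0.0755. Tppp was uneven at 24 months, with 5.14, 21.98, 7.87 and 7.63 CPM, of which replicate 2 was the highest.

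Only 2 genes were called lower. Idua encodes alpha-L-iduronidase, a lysosomal enzyme that breaks down glycosaminoglycans, and had 15.6, 14.2, 15.5, 15.8 and 19.0 CPM at 15 months and 9.22, 9.57, 10.8 and 10.96 CPM at 24 months. Its log2 fold change was -0.66 ± 0.13 (SE), adjusted p = 0.0154 (edgeR). Chst10, a sulfotransferase that makes the HNK-1 carbohydrate, had 14.6, 12.5, 14.1, 12.6 and 16.5 CPM against 7.07, 7.02, 8.13 and 9.03 CPM, a change of -0.85 ± 0.17 (log2, SE), adjusted p = 0.0174 (edgeR). The groups of both genes did not overlap. The call of Idua was lost without replicate 5 at 15 months (adjusted p = 0.0572) or replicate 1 or 2 at 24 months (0.0549 and 0.0737). That of Chst10 was lost without replicate 1 or 5 at 15 months (0.0560 and 0.0588) or replicate 1 or 2 at 24 months (0.0556 and 0.0896). With DESeq2, 21 genes were lower.

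Some of these calls were also lost when a covariate, the libraries in the fit, the tool or the filter changed. With the mitochondrial share as a covariate 56 genes were called, and 46 of the 78 calls were among them. With only the 9 libraries in the fit 101 genes were called, and 62 of the 78 were among them. With the mitochondrial share as a covariate the adjusted p was 0.124 for Idua, 0.127 for Chst10, 0.175 for Hepacam2, 0.0610 for Tppp and 0.0630 for Krt222 (edgeR). With limma voom it was 0.127 for Gnb3, 0.0722 for Ahnak2, 0.112 for Trim40, 0.0907 for Ctla4 and 0.120 for Ighv1-52. Without a filter on low counts it was 0.0511 for Zbtb32 and for Gnb3. Tnfrsf19, Lipc, Sox5 and Plscr1 kept their calls under all 22 alternatives.

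Markers shared by all B cells were not called in either direction. Of 23 tested genes of the B cell list, 0 were called, and the list median was -0.02. Cd79a and Cd79b, the signalling chains of the B cell receptor, had log2 fold changes of -0.04 and -0.02 (adjusted p = 0.985 and 0.991, edgeR). Ms4a1, which encodes CD20, had 0.19 (adjusted p = 0.901).

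Antibody constant genes were not called. Ighm, which encodes the heavy chain of IgM, had 1193, 535, 1386, 1495 and 1460 CPM at 15 months and 2171, 1284, 1690 and 1680 CPM at 24 months (log2 fold change 0.49, adjusted p = 0.715, edgeR). Ighg3 was higher in all 4 libraries at 24 months, with 2.80 to 7.32 CPM against 0.262 to 2.10 CPM, but did not pass (1.85, adjusted p = 0.529). Igha, of IgA, had 686 CPM in replicate 2 at 15 months and at most 150 CPM in any other of the 9 libraries.

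Some plasma cell genes were high in that same library, and others were not. Irf4 and Igkc of that list were lowest of the group there. They had 22.3 CPM against 33.6 to 47.8 CPM, and 639 CPM against 782 to 1008 CPM. Igj, the joining chain of secreted IgM and IgA, had 356 CPM in replicate 2 at 15 months and at most 84.4 CPM elsewhere, and Tnfrsf17, the receptor BCMA of plasma cells, had 14.8 CPM against at most 1.22 CPM. None of the 20 tested plasma cell genes was called. Replicate 2 at 15 months was also the highest of its group in 21 of the 76 genes that rose, without a count over all tested genes to compare. Its part in the results beyond the counts without it was not tested.

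Other cell types were followed through fixed lists, and in none of them was a gene called apart from those named. Naive T cell genes had a median log2 fold change of -0.70, with 27 of 29 members negative, 12 at an unadjusted p under 0.05 and 0 called. Cd3d, a chain of the T cell receptor complex, had 71.4, 60.1, 59.1, 48.6 and 29.0 CPM at 15 months and 36.8, 34.4, 13.4 and 47.1 CPM at 24 months, with groups that overlapped (adjusted p = 0.587, edgeR). Natural killer cell genes had a median of -0.53, with 23 of 27 negative, 8 at an unadjusted p under 0.05 and 0 called. Over all genes, 4.34% were lower and 4.61% higher at that unadjusted p, and the median was -0.00088. Members of a list come from the same cells and the same libraries, so their counts are no independent evidence.

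Interferon response genes had a median of -0.47, with 46 of 50 negative, 23 at an unadjusted p under 0.05 and lower, and 0 called. Of the 50, 7 did not overlap between the ages and were lower at 24 months, against 0.896% of all genes. Isg15, a ubiquitin-like protein induced by interferon, had 1211, 3406, 759, 732 and 1850 CPM against 231.05, 472, 907 and 786 CPM (adjusted p = 0.297, edgeR). Replicate 2 at 15 months was the highest.

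Erythroid genes had a median of -0.64, with 28 of 29 negative, 9 at an unadjusted p under 0.05 and 0 called. Platelet genes had a median of 0.40, with 29 of 29 positive, and none passed an unadjusted p under 0.05. The interferon-induced gene Isg20 had 1842, 2068, 4273 and 4143 CPM at 24 months, all below the 4485 to 8263 CPM at 15 months. Rsad2 had 730, 1501, 2383 and 2254 CPM against 1982 to 5463 CPM, and its groups overlapped. Replicate 1 at 24 months was the lowest in both genes, and neither was called (adjusted p = 0.325 and 0.409, edgeR). Neutrophil, classical monocyte, ribosomal and antigen presentation lists had medians between -0.07 and 0.29, with 0 called.

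Complement genes of macrophages were high in 1 library. C1qa, C1qb and C1qc, the chains of complement C1q, had 14.7, 17.9 and 16.6 CPM in replicate 2 at 24 months and at most 2.13 CPM in any other of the 9 libraries, and Timd4, a receptor of resident macrophages, had 3.98 CPM there and at most 0.232 CPM elsewhere. None was called. Replicate 2 at 24 months was the highest of its group in 37 of the 76 genes that rose, and replicate 1 the lowest in 51. The same counts over all tested genes are not given here, and a link to the complement genes was not tested. Without replicate 2 at 24 months 47 genes were called, all of them among the 78.

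**Figure D3:**
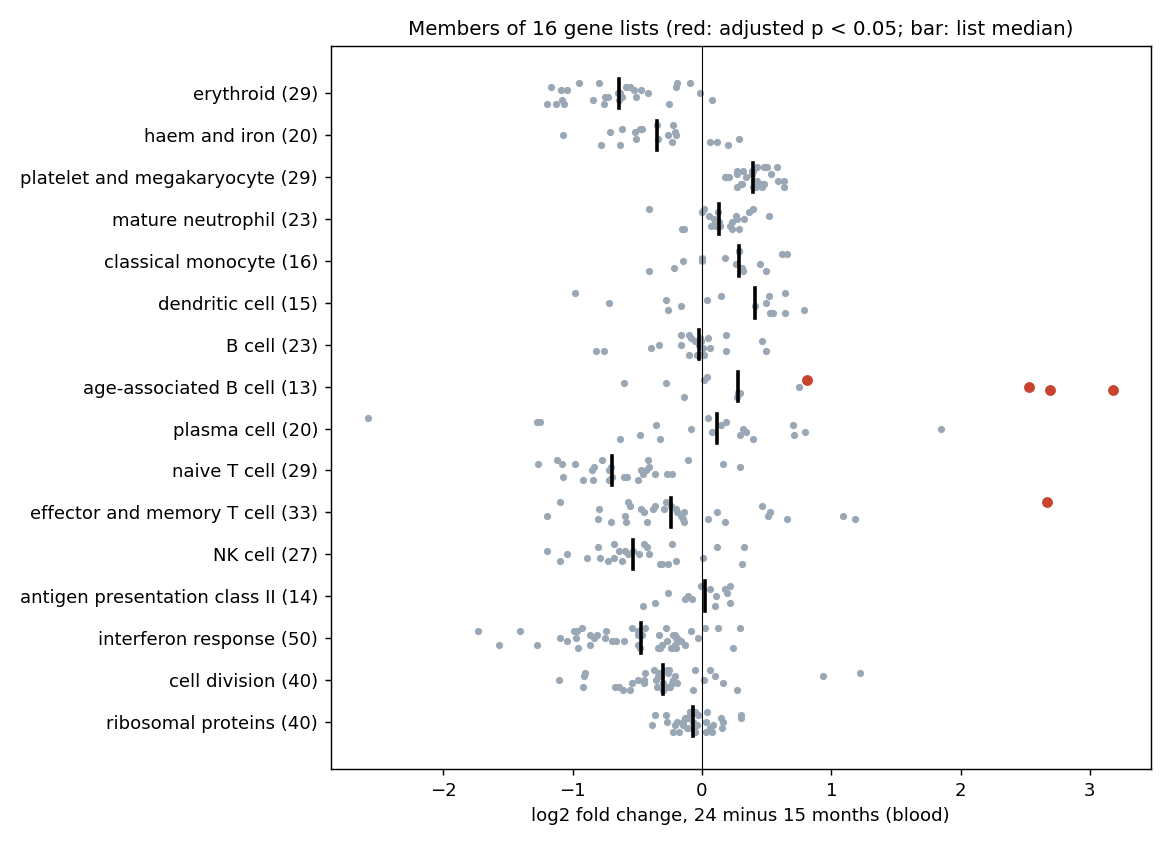
Log2 fold change from 15 to 24 months of each tested member of 16 gene lists in blood, with called genes in red and a bar at the list median. The called genes lie in the age-associated B cell list (4) and the effector and memory T cell list (1), while the naive T cell, natural killer cell, interferon and erythroid medians lie between -0.70 and -0.47 with 0 genes called.

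The course over age was followed in the same fit. From 9 to 15 months 0 of 14730 genes were called (0%) by edgeR, against 7 with DESeq2. From 24 to 30 months 37 genes were higher (0.251%) and 163 lower (1.11%). These comparisons share libraries with that from 15 to 24 months, so their values are given side by side. All 76 genes had a higher mean at 24 months than at 2, 9 and 15 months. In 56 the means at these 3 younger ages were all below 1/3 of that at 24 months. The 76 were selected for high values at 24 against 15 months. That choice sets the 15-month part in advance and can by itself give lower values at 2, 9 and 30 months. These counts describe the selected genes, without a count over all tested genes beside them.

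At 30 months the animals were uneven. The mean lay between those at 15 and 24 months in 63 of the 76 genes, above in 10 and below in 3. Replicates 3 and 5 were the 2 highest of the 5 libraries in 45 of the 76, again without a count over all tested genes. These were the libraries with the largest heavy and kappa V gene shares. Zbtb32 had 12.3, 5.21, 48.8, 12.6 and 45.1 CPM at 30 months, Fcrl5 had 1.21, 2.46, 19.1, 4.19 and 9.30 CPM, and Ctla4 had 6.54, 3.55, 32.2, 5.48 and 54.9 CPM. In all 3 genes replicates 3 and 5 were the highest.

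From 24 to 30 months 6 of the 76 were called lower and 0 higher. Besides the V genes these were Tnfsf4, at -2.04 on the log2 scale (adjusted p = 0.0247, edgeR), the netrin receptor gene Neo1 (-1.80, adjusted p = 0.0247) and D10Wsu102e (-0.76, adjusted p = 0.0314). Over the same interval 14 of 23 members of the B cell list were called lower, against 1.11% of all genes, and the list median was -1.20, with Cd79b among the 14 (-1.23, adjusted p = 0.0198, edgeR). Replicate 3 at 30 months stood apart on multidimensional scaling. With it left out, an alternative added after the data were seen, 113 genes were called from 15 to 24 months, and these included all 78.

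Skin of the same mice was compared to see whether the change was shared. The series holds skin libraries of the 9 animals and of 1 more at 24 months. In skin 0 of 18803 genes were called from 15 to 24 months (0%) by edgeR, with 1004 at an unadjusted p under 0.05, against 19 with DESeq2. Of the 78 genes called in blood, 67 were tested in skin, and their median log2 fold change there was 0.0076, against 2.37 in blood. The genes were selected for their change in blood, so these medians are a description and no test of a difference.

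The difference between the changes of both tissues was tested in 1 model with the animal as a block (limma voom). It was called for 41 of 18885 genes (0.217%), of which 39 had the higher change in blood. Of the 78 genes called in blood 26 were among the 41. Since the 78 were selected for their change in blood, that count is a description. Without replicate 2 at 24 months 24 genes were called, without replicate 4 at 15 months 26, and without replicate 1 at 24 months 68.

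The 5 genes of smallest adjusted p in that model were Ephb4, Fah, Plscr1, Chst7 and Robo1, and all 5 were also called in blood. Both tests use the same blood libraries at 15 and 24 months, so this overlap is a description. Levels in this paragraph are CPM scaled over both tissues. Ephb4, a receptor tyrosine kinase for ephrin-B2, went from 0.149 to 0.339 CPM at 15 months to 2.23 to 3.76 CPM at 24 months in blood, and from 35.4 ± 3.07 (SD, n = 5) to 40.1 ± 6.52 CPM (SD, n = 5) in skin. The change in blood was higher by 3.56 ± 0.35 (log2, SE), adjusted p = 9.03e-05 (limma). Fah, the last enzyme of tyrosine breakdown, had 3.07 to 6.75 and then 14.1 to 21.6 CPM in blood and 13.2 ± 1.01 and 11.5 ± 1.36 CPM (SD, n = 5 each) in skin, with a difference of 2.32 ± 0.24 (adjusted p = 9.03e-05, limma).

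The differences of Plscr1, of Chst7, a sulfotransferase of chondroitin, and of Robo1, a receptor of Slit proteins, were 2.21 ± 0.28, 3.22 ± 0.41 and 4.94 ± 0.66 (log2, SE), with adjusted p of 0.00155, 0.00157 and 0.00211 (limma). In the blood test, leaving out 1 library ended the call of Ephb4 (replicates 1, 4 and 5 at 15 months and 3 and 4 at 24 months, adjusted p of 0.0546 to 0.0791), Fah (replicates 1, 3, 4 and 5 at 15 months and 1 and 3 at 24 months, 0.0527 to 0.0791) and Robo1 (replicates 1, 4 and 5 at 15 months, 0.0524 to 0.0592). Of Sox5, Zbtb32 and Fcrl5, members of the age-associated B cell list, the difference passed for Sox5 (3.76 ± 0.71, adjusted p = 0.0264, limma). It did not pass for Zbtb32 (2.51, adjusted p = 0.0857, limma) or Fcrl5 (2.89, adjusted p = 0.473, limma). Zbtb32 in skin was 6.44 CPM in the animal of blood replicate 1 at 24 months and 1.22 to 2.32 CPM in the other 4 skins of that age, and Fcrl5 was 0.721 CPM against at most 0.0725 CPM.

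**Figure D4:**
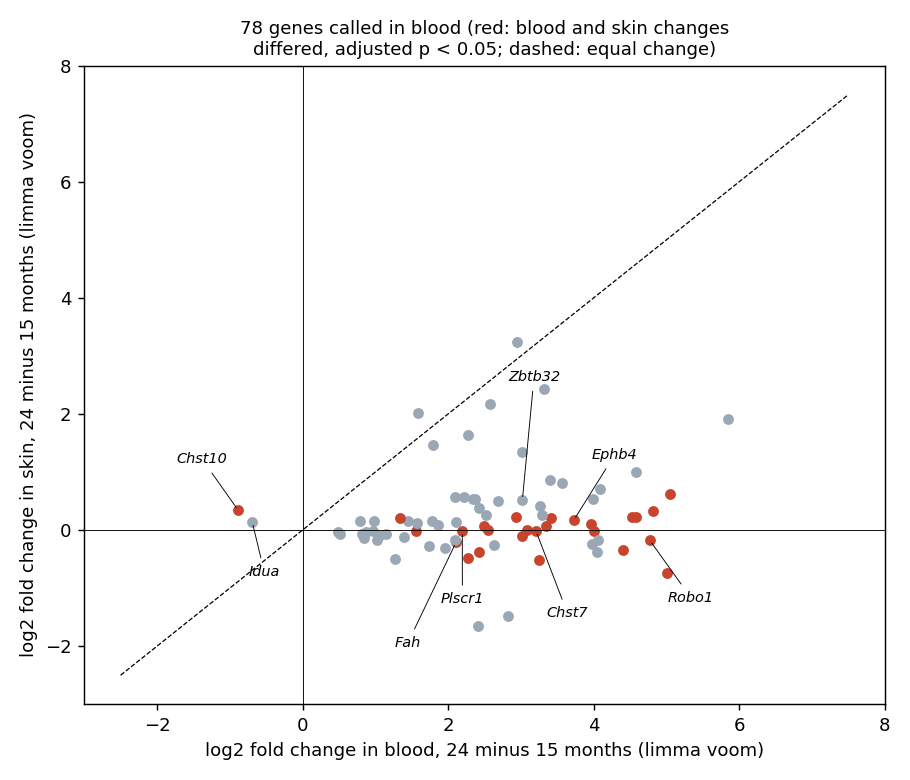
Log2 fold change from 15 to 24 months in skin (vertical axis) against that in blood (horizontal axis) for the 78 genes called in blood, from the limma voom model of both tissues, with genes in red where the changes differed at an adjusted p under 0.05 and a dashed line of equal change. Of the 78 genes 26 are red, among them Ephb4, Fah, Plscr1, Chst7 and Robo1.

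The 24-month library that the study set aside differed from the 4 used. It held 31575913 counts, and its TMM factor was 0.353. Of the 76 genes that rose it was below every other library at 24 months in 64, and within or below the range at 15 months in 42 of these. Its B cell markers Cd79a and Ms4a1 were at 12.3% and 10.8% of the mean of the 4 libraries, and Alas2, an erythroid enzyme, at 579%. With it in the fit, 41 genes were called, 38 of them among the 78, and the calls of Fcrl5 (adjusted p = 0.0917, edgeR), Fcgr2b (0.0645), Ctla4 (0.0724) and Ighv1-52 (0.0607) were among those lost.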

How the data were processed

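RNA of whole blood, depleted of globin transcripts, was sequenced as single-end reads of 50 bases. Per the labels and the study's methods, the authors mapped reads with TopHat 2.0.6 to GRCm38 and deposited raw counts per gene, made with HTSeq or featureCounts; whether counting used strand was not given in the sources used here, so overlapping genes on opposite strands cannot be told apart. The deposited RPKM tables were not used.

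Testing of counts used edgeR 4.0.16 under R 4.3.3 (quasi-likelihood, robust, TMM scaling, filterByExpr by age) over the 24 blood libraries of the main table with age as a factor of 5 levels. Adjustment of p-values ran over the whole table of tested genes (Benjamini-Hochberg, threshold 0.05), and CPM values carry the TMM factors. The same fit was made in skin. The difference between the changes in blood and skin was fitted with limma 3.58.1 (voom, animal as a block, consensus correlation 0.0108). DESeq2 1.42.0 was an alternative. The depth of 29092696 to 33955991 counts per library sets the counting error.

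Named genes were the 12 largest rises and falls called whose mean log2 CPM reached 1, the called list members of the 3 smallest adjusted p per list, and 5 genes for the difference from skin. V gene shares are counts of 1 gene among all V genes of its chain, with 95% Wilson intervals. The members and lists were chosen with earlier results of these data known. On simulated counts for the 14730 genes of the blood comparison, 69% of changes of 1 and 100% of changes of 2 (log2) were recovered, and 2.87% of calls were false. Whether these percentages hold for the calls in the blood libraries was not tested. Some marker genes of the lists are not reported here.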

Additional observations from a re-analysis of the deposited data

Results flagged for a closer look

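Of 58 groups of 4 or 5 libraries checked, 11 had 1 library far from the others. The groups share libraries and related genes, and levels were not on a log scale. No chance rate can therefore be set beside this count. At 15 months, replicate 2 stood far above its group in the leading heavy chain V gene share (46.6%), the leading kappa share (29.1%), Igha (686 CPM), Igj (356 CPM), Tnfrsf17 (14.8 CPM) and Zbtb32 (16.9 CPM), and far below it in Hepacam2 (1.66 CPM). Also at 15 months, Gnb3 was high in replicate 5 (0.813 CPM) and Camk2n1 in replicate 3 (2.52 CPM). At 24 months, Gnb3 was high in replicate 3 (11.4 CPM) and Tppp in replicate 2 (21.98 CPM).

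The change from 15 to 24 months differed between blood and skin for 41 genes in the limma voom model. The change in blood was higher by 3.56 for Ephb4, 2.32 for Fah, 2.21 for Plscr1, 3.22 for Chst7 and 4.94 for Robo1 on the log2 scale.

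The 24-month library that the study set aside entered the test only as an alternative. Its leading heavy chain V gene, Ighv12-3, took 49.9% of 371 V counts (95% Wilson interval 44.8 to 54.9), and its leading kappa gene, Igkv4-91, took 56.2% of 708 (52.5 to 59.8).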

How the results depend on the processing

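Over 22 alternatives to the comparison of 24 with 15 months, no named gene changed direction, 467 values of single genes kept their side of the threshold, 112 lost the call and 3 gained it. Of the list medians, 750 moved by less than the spread between libraries and 19 by more. The 78 calls became 32 with only genes above 0 in every library (12982 genes tested), 179 with DESeq2 (77 of the 78 among them) and 41 with the added library. They became 56 with the mitochondrial share as a covariate (46 of the 78 among them) and 101 with only the 9 libraries (62 of the 78). Leaving out 1 library gave 38 to 109, with 38 without replicate 4 and 109 without replicate 2 at 15 months. Without replicate 3 at 30 months, chosen after seeing the data, it was 113. Of the 15 named genes, 8 were called with that filter, 9 with the added library and 9 to 15 without 1 library. The 5 called list members became 2 without a filter, 3 with the filter of the study, 9 with DESeq2, 2 with the added library and 1 to 8 without 1 library, the 1 being without replicate 4 at 15 months. From 24 to 30 months, the 200 calls became 128 with the filter of the study and 610 with DESeq2. From 9 to 15 months, 0 became 7 with DESeq2, and in skin 0 became 19. The 41 genes that differed between blood and skin became 24 to 68 without 1 library. The causes were not tested. Counts near 0 at 15 months, as for Gnb3 or Robo1, limit the precision of their fold changes. No paired analysis was possible because the blood libraries at 15 and 24 months come from different animals, and their replicate numbers do not pair them.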
